A study of Mus musculus with 10 samples.

Results

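The genes described here are 10 mouse long noncoding RNAs and host genes of small nucleolar RNAs (snoRNAs): Malat1, Neat1, Gas5, Snhg1, Snhg3, Snhg5, Snhg8, Snhg12, H19 and Meg3. A gene was taken where an array row was annotated with its symbol alone, and by the row with the highest mean where it had several. This found 3 of the 10, Malat1, Neat1 and Snhg5, with 1 row each, among 30142 genes with such a row. The other 7 were listed only on rows that also name small RNAs, most of them encoded inside the same gene. Those rows are described separately below, as "the row listing" the gene, and are not counted as the gene itself.

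The cells were 4T1, an established mouse mammary carcinoma line, grown for 5 days inside collagen gels from 50000 cells. In the high-density group (HD) the gel held 3.5 mg/mL collagen, and in the low-density group (LD) it held 2 mg/mL. Both groups were of this 1 line, in RPMI medium with serum, with no added agent or genetic change named in the labels. Total RNA from each of 5 HD and 5 LD samples was hybridised to 1 Affymetrix MTA 1.0 array, which carries probes along whole coding and noncoding transcripts. Whether the 5 samples per group were separate cultures is not in the labels, so each p-value is set against a spread that may be technical. The values are log2 signals, and the number of arrays limits the precision. In bulk RNA, fewer cells with a transcript and less of it per cell cannot be told apart.

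Malat1 and Neat1 are neighbouring genes whose RNAs stay in the nucleus. Malat1 RNA collects in nuclear speckles, bodies rich in splicing factors, and the long isoform of Neat1 RNA is the scaffold of paraspeckles. The ends of Malat1 RNA and of that long isoform are cut by RNase P, which leaves a small tRNA-like piece that RNase Z trims. Gas5 and the Snhg genes are hosts: their introns hold snoRNAs, which are released during splicing and guide the methylation or pseudouridylation of ribosomal RNA. The spliced host RNAs code for little or no protein, several are removed by nonsense-mediated decay when ribosomes read them, and many begin with the pyrimidine tract of growth-regulated, translation-linked transcripts. H19 and Meg3 are imprinted, expressed from the maternal chromosome, and carry microRNAs.

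Promoter sequence is shown first, for Snhg5, which was higher in HD, and for Malat1, which was lower. It is also shown for Snhg1, Snhg3, Snhg8 and Snhg12, which were read only on rows shared with small RNAs, and those rows were higher. The sequences are RefSeq's for GRCm38.p6 and cover 50 bases before the transcription start and the first 30 bases transcribed, so the start is base 51 of each. Capitals mark TATAAA on either strand, the core of the TATA box, and lower case is all other sequence, written 5′ to 3′ on the gene's strand. The hosts lie at chr9:88522868-88522947 (minus strand, Snhg5), chr19:8723437-8723516 (plus, Snhg1), chr4:132353657-132353736 (minus, Snhg3), chr3:123508307-123508386 (minus, Snhg8) and chr4:132308628-132308707 (plus, Snhg12), and Malat1 at chr19:5802643-5802722 (minus).
Snhg5: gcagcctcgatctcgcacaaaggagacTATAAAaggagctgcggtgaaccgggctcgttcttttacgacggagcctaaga
Snhg1: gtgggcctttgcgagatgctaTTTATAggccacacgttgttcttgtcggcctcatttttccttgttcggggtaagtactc
Snhg3: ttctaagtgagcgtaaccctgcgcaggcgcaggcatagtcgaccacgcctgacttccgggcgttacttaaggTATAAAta
Snhg8: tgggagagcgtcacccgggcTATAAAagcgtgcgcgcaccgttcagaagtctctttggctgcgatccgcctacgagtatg
Snhg12: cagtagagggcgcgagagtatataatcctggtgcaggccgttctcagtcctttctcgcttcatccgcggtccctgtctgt
Malat1: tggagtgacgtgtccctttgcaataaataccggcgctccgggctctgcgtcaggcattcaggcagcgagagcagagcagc

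Promoter windows of 300 bases, 250 before and 50 from the start, were held for 8 of the 10 genes, with a pair of windows each for Gas5 and Meg3. Neat1 and H19 are named only. TATAAA, read on both strands, was in the windows of 5 genes (Snhg1, Snhg3, Snhg5, Snhg8 and Meg3), and in 13.6% of all 32851 mouse windows. A match starting 20 to 35 bases before the start, where TATA boxes usually lie, was in the windows of 4 of the 8 genes and in 2.26% of all windows. Those matches began 23 bases before the start in Snhg5, 29 in Snhg1 and 30 in Snhg8, and at 29 and 25 bases in Meg3, whose matches overlap. The Snhg3 match lies after the start, and the Malat1 and Snhg12 windows hold no TATAAA. Variants of these letters were not searched, and the printed Snhg12 stretch reads tatataa before its start. Of the other motifs searched on both strands, CCAAT was in the windows of 4 of these genes (37.4% of all windows), GGGCGG in 4 (35.7%), CCGGAAG in 1 (8.86%) and CACGTG in 0 (7.15%). ACGTG was in 3 (19.6%) and GCGTG in 5 (32.4%); both can overlap each other's flanks and CACGTG. Such matches describe the letters in a window and are not shown binding sites.

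The RNAs of the nuclear bodies were lower in HD and the host gene Snhg5 was higher. Of the 3 genes with a row of their own, 1 rose and 2 fell by limma, with p-values adjusted by Benjamini-Hochberg across the 17800 genes tested and a threshold of 0.05. Among all genes tested 50.9% passed that threshold, 31.4% as higher and 19.5% as lower, so a call by itself was common here. The HD and LD arrays did not overlap in any of the 3 genes, which was so for 36.7% of all genes tested (all HD arrays above LD in 21.6%, all below in 15.1%).

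Malat1 had log2 signals of 11.80, 11.39, 11.64, 11.77 and 11.71 in HD replicates 1 to 5, against 12.29, 12.26, 12.18, 12.24 and 12.10 in LD replicates 1 to 5. Every HD array lay below every LD array, and HD replicate 2 was the lowest of all. The mean was 11.66 ± 0.165 in HD and 12.21 ± 0.0766 in LD (SD, n = 5 each), which is 1.47-fold lower in HD (change -0.55 ± 0.0688 SE, 95% confidence interval -0.70 to -0.40, limma adjusted p = 1.9e-05). The change was larger than the median spread of a gene between replicates, an SD of 0.073, and 320 genes fell by more.

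Neat1 signals were 9.70, 9.21, 9.45, 9.53 and 9.31 in HD replicates 1 to 5, against 10.29, 10.13, 10.04, 10.26 and 10.09 in LD replicates 1 to 5. The groups were again apart, with HD replicate 2 the lowest and HD replicate 1 the highest HD array for both Neat1 and Malat1. Neat1 averaged 9.44 ± 0.192 in HD and 10.16 ± 0.108 in LD (SD, n = 5 each), 1.65-fold lower in HD (change -0.72 ± 0.0808 SE, 95% confidence interval -0.90 to -0.55, limma adjusted p = 7.1e-06). Among all genes tested, 152 fell by more. Which part of Neat1 its row covers, and so whether it reads the short isoform, the long one or both, is not stated in the files or labels. The gap between the Neat1 and Malat1 rows, which is no comparison of their levels, was -2.22 ± 0.108 log2 units in HD and -2.05 ± 0.0753 in LD (SD, n = 5 each), and its HD and LD values overlapped.

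**Figure D1:**
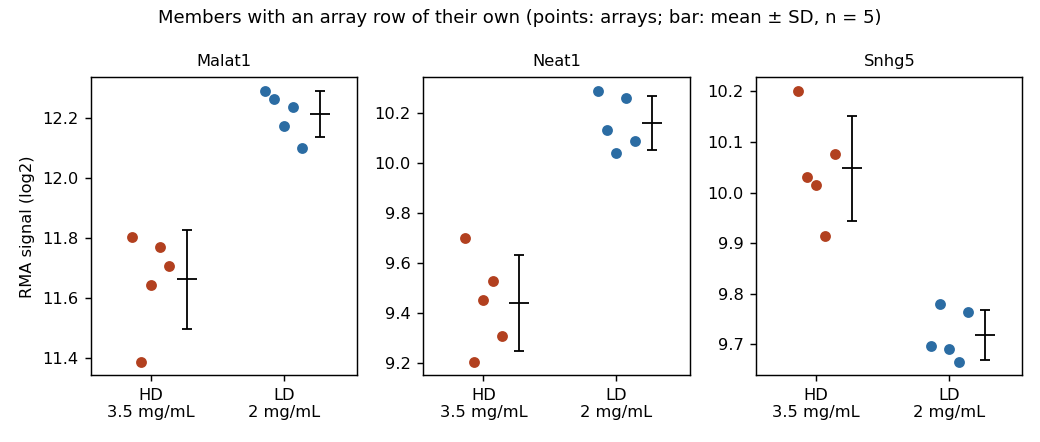
RMA log2 signal of Malat1, Neat1 and Snhg5 (vertical axes) in HD gels (3.5 mg/mL collagen, red) and LD gels (2 mg/mL, blue); points are arrays in replicate order and bars the mean ± SD of 5 arrays. All HD points lie below the LD points for Malat1 and Neat1 and above them for Snhg5, and each panel has its own scale.

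Control rows of the array moved with the groups, and the files do not say what they read. The 5222 negative control rows had a median of 5.58, 5.34, 5.26, 5.48 and 5.42 in HD replicates 1 to 5, against 5.75, 5.61, 5.64, 5.66 and 5.67 in LD replicates 1 to 5. Their mean was 5.42 ± 0.124 in HD and 5.67 ± 0.0516 in LD (SD, n = 5 each; two-sided exact permutation p = 0.0079, the smallest that 5 against 5 arrays can give). Positive control rows, background rows and ERCC rows were higher in HD, by 0.066, 0.16 and 0.19 log2 units (two-sided exact permutation p = 0.0079, 0.0079 and 0.032). When each array was scaled linearly on its negative and positive control rows, the log2 change was -0.84 for Malat1, -0.83 for Neat1 and 0.21 for Snhg5, and each still passed the test. Such scaling shifts a row by its signal, whatever the gene: it raises dim rows in HD against LD and lowers bright ones. The means of Malat1, Neat1 and Snhg5 lie above both sets of control rows (positive control rows 9.28 in HD and 9.21 in LD). Their scaled changes are therefore extrapolated beyond those rows. Over all 17800 genes tested, that scaling gave 8785 higher and 3396 lower, with a median of 0.13 against 0.055 as deposited. List counts under the scaling, given below, are to be read beside these. With group means removed, the negative control median correlated over the 10 arrays with Neat1 (r = 0.66), Malat1 (0.61) and Snhg5 (0.29). Among the listing rows described below, r ran from -0.57 (Meg3) to 0.50 (Gas5). These correlations carry no test, and the part of these control rows in the results was not tested beyond that scaling.

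**Figure D2:**
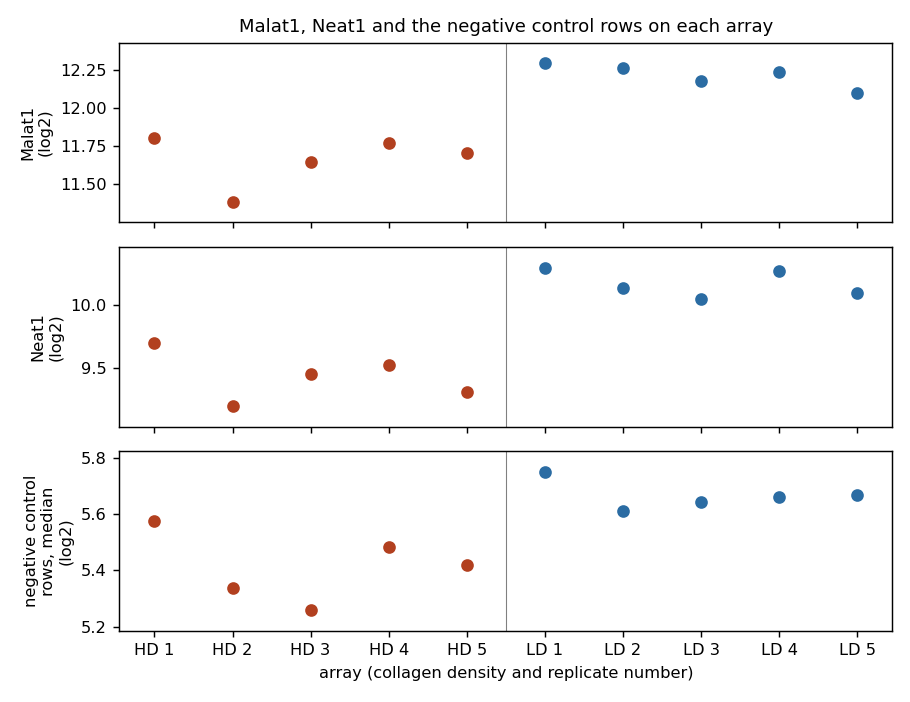
Log2 signal of Malat1, of Neat1 and of the median negative control row (3 panels, vertical axes) on each array (horizontal axis, HD replicates 1 to 5 left of LD replicates 1 to 5). All 3 are lower on the HD arrays, and HD replicate 1 is the highest HD array in each panel. The lowest is HD replicate 2 for Malat1 and Neat1 but HD replicate 3 for the negative control rows.

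Snhg5, which hosts a pair of snoRNAs in its RefSeq span, had signals of 10.20, 10.03, 10.02, 9.91 and 10.08 in HD replicates 1 to 5, against 9.70, 9.78, 9.69, 9.67 and 9.76 in LD replicates 1 to 5. Every HD array was above every LD array. The mean was 10.05 ± 0.104 in HD and 9.72 ± 0.0494 in LD (SD, n = 5 each), 1.26-fold higher in HD (change 0.33 ± 0.0491 SE, 95% confidence interval 0.22 to 0.43, limma adjusted p = 8.7e-05). This was a moderate change among these genes, since 1260 of those tested rose by more.

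Of the 7 rows that list Gas5, Snhg1, Snhg3, Snhg8, Snhg12, H19 or Meg3 beside small RNAs, all but the Meg3 row were tested, in a second limma fit over all 32083 transcript cluster rows above the signal floor. That floor is the median of all rows' means, a log2 signal of 5.24. In that fit 46.9% of rows passed the threshold, 21.0% as higher in HD and 26.0% as lower. In 33.6% the arrays did not overlap, with all HD arrays above LD in 14.8% and below in 18.8%. Of the 6 listing rows above the floor, 4 were higher, 0 were lower and 2 did not pass.

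The row listing Snhg8 and Snora24, an H/ACA snoRNA, had signals of 8.97, 9.02, 8.78, 8.79 and 8.91 in HD replicates 1 to 5, against 8.36, 8.46, 8.44, 8.40 and 8.54 in LD replicates 1 to 5. It was 1.37-fold higher in HD with no overlap (change 0.45 ± 0.0553 SE, limma adjusted p = 5.4e-05). For the row listing Snhg3 and Snora73a, another H/ACA snoRNA, HD replicates gave 8.96, 8.92, 8.81, 8.83 and 8.73, against 8.46, 8.43, 8.41, 8.39 and 8.48 in LD. The groups did not overlap, and the row was 1.34-fold higher in HD (0.42 ± 0.0473 SE, limma adjusted p = 3.1e-05).

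Snhg1 is listed with Snord22, a C/D snoRNA, on a row with signals of 9.34, 9.18, 9.17, 9.14 and 9.23 in HD replicates 1 to 5, against 8.77, 8.90, 8.80, 8.78 and 8.78 in LD replicates 1 to 5. The row was 1.33-fold higher in HD (change 0.41 ± 0.0458 SE, limma adjusted p = 2.9e-05), and its lowest HD array was above its highest LD array, LD replicate 2. Over the 10 arrays, each row centred on its own mean, the Snhg1 row and Snhg5 differed by a root mean square of 0.053 log2 units. That was the smallest difference between any pair of the 10 genes' rows, and it describes arrays that share their scaling.

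Snhg12 shares its row with Snord99, Snora61 and Snora44. The signals were 7.38, 7.44, 7.22, 7.30 and 7.31 in HD replicates 1 to 5, against 7.19, 7.18, 7.19, 7.14 and 7.18 in LD replicates 1 to 5. The HD arrays again all lay above the LD arrays, by less: HD replicate 3 exceeded the highest LD array only slightly. The change was 1.11-fold (log2 change 0.15 ± 0.0443 SE, limma adjusted p = 0.014), and 0.26 after the control-row scaling.

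Gas5, the growth arrest-specific host gene, is listed with Snord47 and Mir5117. Its row read 9.41, 9.19, 9.19, 9.19 and 9.30 in HD replicates 1 to 5, against 9.10, 9.20, 9.14, 9.05 and 9.12 in LD replicates 1 to 5. LD replicate 2 lay above 3 of the HD arrays, so the groups overlapped. The log2 change was 0.13 ± 0.0512 SE (95% confidence interval 0.020 to 0.24) and did not pass the threshold (limma adjusted p = 0.051). It passed with the stricter filter on dim rows (adjusted p = 0.031) and with trended, robust variances (0.037). Without HD replicate 2, HD replicate 3 or LD replicate 2 it was 0.15 and passed as well (adjusted p = 0.044, 0.044 and 0.042), and it was 0.07 after the control-row scaling.

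The row listing H19 and Mir675, a microRNA cut from H19, read 6.03, 6.02, 6.33, 6.05 and 6.13 in HD replicates 1 to 5, against 6.32, 6.36, 6.22, 6.40 and 6.13 in LD replicates 1 to 5. HD replicate 3 stood among the LD arrays and LD replicate 5 among the HD arrays. The log2 change of -0.17 ± 0.0681 SE (95% confidence interval -0.32 to -0.027) did not pass (limma adjusted p = 0.052). Without HD replicate 3 it was -0.23 (adjusted p = 0.0080) and without LD replicate 5 it was -0.21 (0.024), both past the threshold, while the control-row scaling gave 0.02. Its signal was within 1 log2 unit of the negative control rows in both groups. The Meg3 row, which also names Mir770, Mir1906-1 and Mir1906-2, lay below the floor and was not tested. It read 4.95, 4.97, 5.13, 5.04 and 5.01 in HD replicates 1 to 5, against 4.89, 4.92, 4.90, 4.99 and 4.88 in LD replicates 1 to 5.

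**Figure D3:**
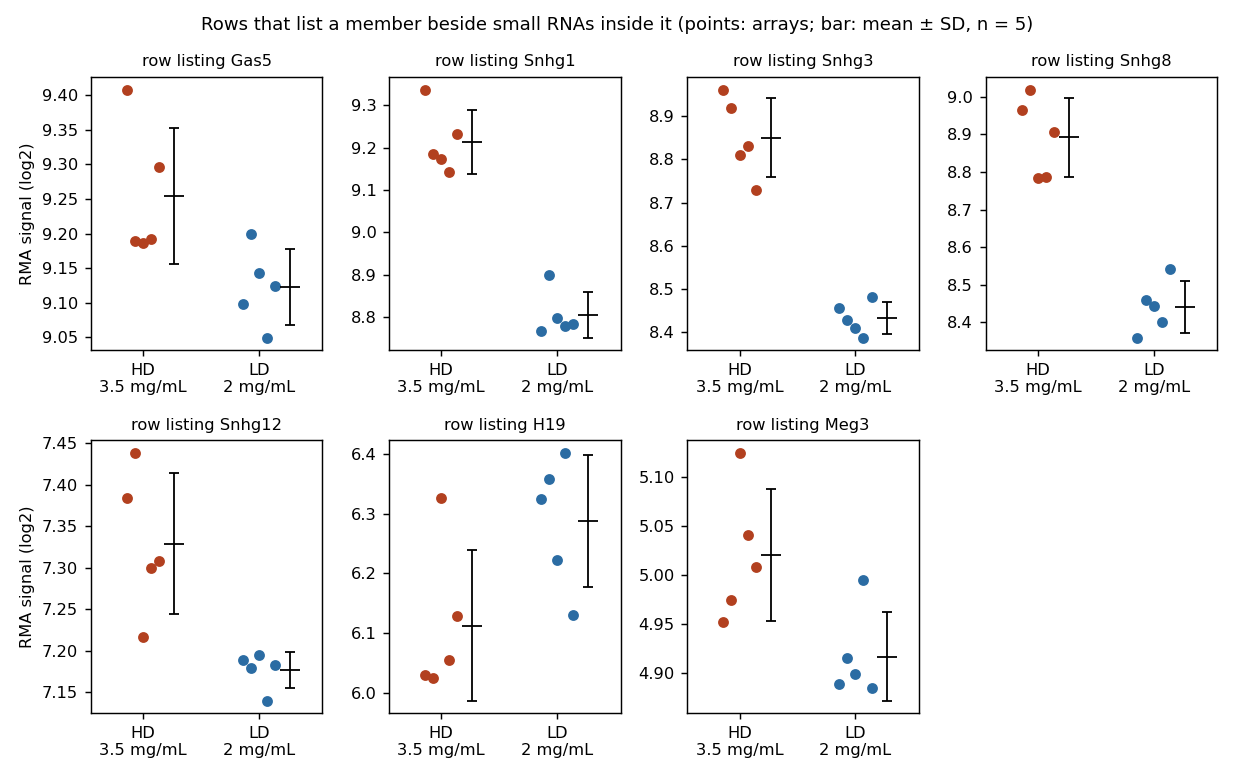
RMA log2 signal (vertical axes, each panel with its own scale) of the 7 rows that list a gene beside small RNAs, in HD (red) and LD (blue); points are arrays in replicate order and bars the mean ± SD of 5 arrays. The HD points lie above all LD points for the rows listing Snhg1, Snhg3, Snhg8 and Snhg12 and overlap them for Gas5, H19 and Meg3.

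**Figure D4:**
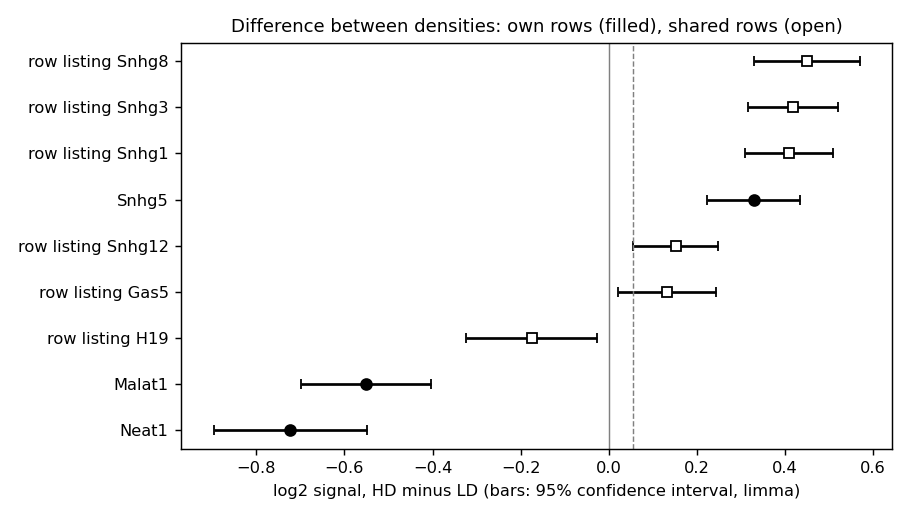
Log2 signal in HD minus LD (horizontal axis) with its 95% limma confidence interval, for the 3 genes with a row of their own (filled circles) and the 6 tested rows that list a gene beside small RNAs (open squares); the solid line is 0 and the dashed line the median of all genes tested, 0.055. The squares are from the fit over 32083 rows, where the median change was 0.012. The host rows lie right of 0, from 0.13 to 0.45, and Neat1 (-0.72) and Malat1 (-0.55) lie farthest left.

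Few snoRNAs inside these hosts had rows of their own. RefSeq spans place 8 snoRNAs inside Gas5, 8 inside Snhg1, 4 inside Snhg12, 2 inside Snhg3, 2 inside Snhg5 and 1 inside Snhg8, and 3 of them had a row with a single symbol. Snora73a and Snora73b of Snhg3 guide the processing of ribosomal RNA and are close copies that probes may not separate. Snora73b rose by 0.36 ± 0.0605 SE on its brighter row (limma adjusted p = 2.4e-04) and by 0.36 on the other, and Snora73a by 0.34 ± 0.0644 SE. All HD arrays of these rows were above the LD arrays. The Snora73a row and the dimmer Snora73b row are named as unmapped on the array, so those rows are not placed inside Snhg3. Snora16a of Snhg12, by contrast, averaged 10.93 ± 0.179 in HD and 10.93 ± 0.0581 in LD (SD, n = 5 each), a difference of 0.0044 that did not pass (limma adjusted p = 0.96). After the control-row scaling it was -0.21 (adjusted p = 0.018).

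The nearest tested genes on either side moved in both directions. Ltbp3, which encodes a TGF-beta binding protein next to Malat1, fell by 0.51 on the log2 scale (limma adjusted p = 1.2e-06). On the far side of Neat1, Frmd8 differed by 0.06 (adjusted p = 0.27). Around Snhg5, Syncrip, an RNA-binding protein gene, rose by 0.22 (adjusted p = 9.0e-04) while the zinc finger gene Zfp949 fell by 0.38 (adjusted p = 5.4e-07); Syncrip did not pass after the control-row scaling (0.09, adjusted p = 0.18). Beside the hosts on shared rows, Rcc1 next to Snhg3 rose by 0.56, Wdr74 next to Snhg1 by 0.32 and Taf12 next to Snhg12 by 0.27. Slc3a2, the amino acid transporter subunit on the other side of Snhg1, rose by 0.14 (adjusted p = 0.033), a call lost without HD replicate 2 or LD replicate 1, 2 or 4, and was 0.0037 after the control-row scaling. The Snhg8 neighbour Ndst3 fell by 0.20 (adjusted p = 0.0033), with -0.07 after that scaling (adjusted p = 0.14), and Prss12 differed by -0.07 (adjusted p = 0.14).

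Among other snoRNA hosts, more tested genes were higher in HD than lower, as was so over all genes tested. There 31.4% were higher and 19.5% lower, shares to set beside each list count from here on. From a list of 18 further hosts, mostly noncoding, 7 were tested; 4 rose and 0 fell, and their median change was 0.14 log2 units, against 0.055 over all genes tested. After the control-row scaling 5 rose, and the medians were 0.17 for the list and 0.13 for all genes tested. Snhg15 rose by 0.34 ± 0.0404 SE (8.43 in HD and 8.09 in LD, limma adjusted p = 1.1e-05) and the protein-coding host Cwf19l1 by 0.19 ± 0.0465 SE. Snhg10 rose by 0.14 ± 0.0531 SE with overlapping arrays (limma adjusted p = 0.044), a call that was lost without any 1 array other than HD replicate 4, LD replicate 4 or LD replicate 5 (adjusted p up to 0.11). The list's higher count was 2 with array weights, and also 2 without HD replicate 1, HD replicate 5 or LD replicate 1, and its lower count 1 without HD replicate 1 or LD replicate 2. On rows shared with small RNAs, the rows listing Snhg4, Taf1d and Dancr were higher by 0.51, 0.27 and 0.24, the row listing Snhg7 differed by -0.05 (limma adjusted p = 0.48), and that listing Rian lay below the floor. Of 43 protein-coding hosts, many of them ribosomal protein and translation genes, 20 were tested; 11 rose and 1, Eef2, fell (median 0.10), and 6 rose and 7 fell after the control-row scaling (median -0.01). The lower count was 0 with the replicate block, with no filter, and without HD replicate 1, 4 or 5 or LD replicate 1, 3 or 4. Dkc1, the pseudouridine synthase of H/ACA particles, and Nop58, a core C/D protein, rose by 0.47 and 0.46, and the ribosome biogenesis gene Wdr43 by 0.43.

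Genes for the proteins that bind and assemble snoRNAs were mostly higher in HD. Of 18 listed, 16 were tested; 14 rose and 1 fell, with a median of 0.33, and 13 rose and 0 fell after the control-row scaling. Nhp2, a core H/ACA protein, averaged 9.13 ± 0.0900 in HD and 8.47 ± 0.103 in LD (SD, n = 5 each), a 1.58-fold rise (log2 change 0.66 ± 0.0552 SE, limma adjusted p = 5.9e-07). Nolc1, a nucleolar and Cajal body phosphoprotein that binds snoRNA particles, rose by 0.66 and the H/ACA assembly factor Naf1 by 0.55. The 1 that fell was Shq1, also an H/ACA assembly factor, by 0.14 (adjusted p = 0.0068), named after its value was seen. Dkc1 and Nop58 stand in this list and in that of protein-coding hosts.

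SnoRNA and scaRNA rows themselves went both ways, as did all genes tested (31.4% higher and 19.5% lower). Of 68 genes of these kinds with a row of their own, 62 were tested; 17 rose and 5 fell, with a median of 0.08, and 15 fell after the control-row scaling (median 0.00090). Snora41 rose by 0.64 ± 0.0732 SE (8.18 in HD and 7.55 in LD, limma adjusted p = 9.2e-06). Snora30 and the Cajal body RNA Scarna17 fell by 0.43 and 0.42 (adjusted p = 0.0012 and 2.6e-05). The files do not say whether a row reads the mature snoRNA or the host intron.

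Factors of nonsense-mediated decay, the pathway that degrades several host RNAs, moved in both directions. Of 19 listed, 13 were tested; 7 rose and 3 fell (median 0.09). Smg6, the endonuclease of the pathway, fell by 0.53 ± 0.0494 SE (8.30 in HD and 8.83 in LD, limma adjusted p = 1.5e-06). Upf1, its central helicase, rose by 0.42 ± 0.0412 SE (adjusted p = 2.2e-06), and Smg5, which helps dephosphorylate Upf1, rose by 0.38.

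Paraspeckle protein genes mostly did not pass the test. Of 20 listed, 15 were tested; 2 rose and 3 fell (median -0.02), and 1 rose and 7 fell after the control-row scaling (median -0.09). Cirbp, the cold-inducible RNA-binding protein, fell by 0.53 ± 0.0487 SE (8.25 in HD and 8.77 in LD, limma adjusted p = 1.5e-06). Ewsr1, a FET family RNA-binding protein, fell by 0.18, and the chromatin remodeller Smarca4 rose by 0.22, with 0.09 after that scaling (adjusted p = 0.14).

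In the list of nuclear speckle proteins and Malat1 processing enzymes, 16 of 17 were tested; 8 rose and 3 fell (median 0.08), and 5 rose and 6 fell after the control-row scaling (median -0.06). Called speckle protein genes went both ways. Srsf1, Srsf6 and Rnps1 rose by 0.18, 0.16 and 0.10, while Srsf5, Son and Prpf6 fell by 0.34, 0.24 and 0.09. They were named after their values were seen. The largest changes were in the processing enzymes. Rpp30 and Pop1, subunits of RNase P, rose by 0.67 ± 0.0461 SE (9.35 in HD and 8.67 in LD, limma adjusted p = 1.3e-07) and 0.49 ± 0.0504 SE (adjusted p = 3.7e-06). Elac2, the RNase Z that trims tRNA ends, rose by 0.48 ± 0.0427 SE (adjusted p = 1.1e-06). Both RNase P subunits also serve RNase MRP, and RNase P and RNase Z act mainly on other RNAs such as tRNA precursors.

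Genes of the H19 and Meg3 domains and their regulators were tested for 9 of 14; 4 rose and 1 fell (median 0.08), and 6 rose and 1 fell after the control-row scaling (median 0.25). With the stricter filter on dim rows 2 rose and 0 fell. Zfp57, which maintains imprints, fell by 0.36 ± 0.0437 SE (limma adjusted p = 1.5e-05), and Mrpl23, a mitochondrial ribosomal protein gene beside H19, rose by 0.16 ± 0.0373 SE. Th rose by 0.14 (adjusted p = 0.031) at a signal of 5.68 in HD and 5.54 in LD, the second below the negative control rows' median of 5.67 there, a call lost without HD replicate 3 (adjusted p = 0.071), LD replicate 1 (0.084) or LD replicate 2 (0.068). The domain count fell to 2 higher without HD replicate 3 or LD replicate 1. Of 31 other imprinted genes 20 were tested, of which 4 rose and 8 fell (median -0.03). In the unscaled fit without LD replicate 1, 2 or 3, 2 of these rose. After the control-row scaling 9 rose and 6 fell, and the median was 0.13, as it was over all genes tested. The placental growth regulator Phlda2 rose by 0.42 and Mest by 0.36, and the imprinted antisense RNA Kcnq1ot1 fell by 0.31.

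Among 37 other named noncoding RNAs, 18 were tested; 2 rose and 6 fell (median -0.02), and 5 rose and 9 fell after the control-row scaling. The higher count was 1 without HD replicate 4 or LD replicate 2, 4 or 5, and 4 without HD replicate 5. Fendrr, a developmental long noncoding RNA, fell by 0.66 ± 0.0554 SE (7.66 in HD and 8.31 in LD, limma adjusted p = 6.6e-07). Morrbid, known for its part in myeloid cell survival, fell by 0.38, and the p53-responsive Lncpint by 0.36. Of 5 tested transcripts of mitochondrial DNA, ND3 rose by 0.18 (-0.15 after the control-row scaling) and ND6 fell by 0.15, a call lost without any 1 array other than HD replicate 5 or LD replicate 5.

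**Figure D5:**
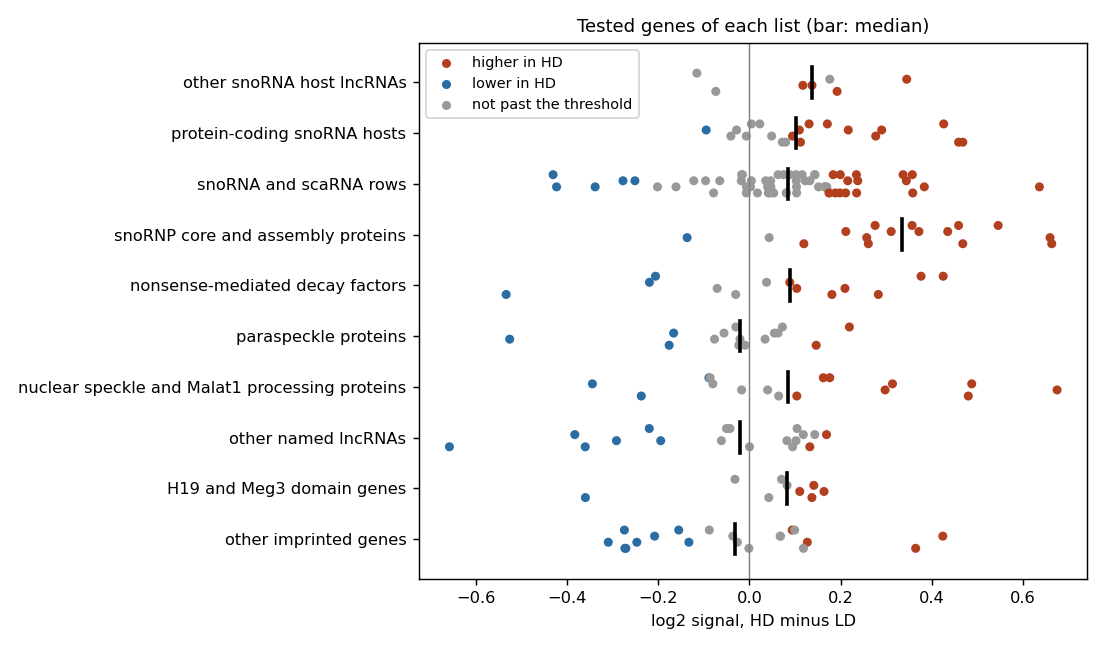
Log2 signal in HD minus LD (horizontal axis) for each tested gene of 10 lists (rows); points are genes, red where higher in HD, blue where lower and grey where not past the limma threshold, and black bars are list medians. The snoRNP protein genes lie farthest right, with a median of 0.33, while the paraspeckle, other imprinted and other noncoding RNA lists have medians just below 0.

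Tested profiles were compared with these genes over the 10 arrays by the root mean square difference, after centring each on its own mean. Symbols made of Gm plus digits, ending in Rik or starting with LOC were left out. The closest of the rest were as follows. Closest to Malat1 were Mir669a-2 (0.062 log2 units), Skil (0.064), an inhibitor of SMAD signalling, and Kdm5a (0.068), a histone demethylase. Mir669a-2 belongs to a microRNA family of many near-identical copies, so its row is uncertain. For Neat1 they were Kirrel3os (0.084), Phxr4 (0.099) and Ogt (0.10), the enzyme that adds O-GlcNAc to proteins. For the Gas5 row they were Cdc27 (0.023), Utp14a (0.027) and Gmps (0.027), whose own changes were 0.12 each. The Cdc27 and Gmps changes turned to -0.0069 and -0.017 after the control-row scaling.

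Markers of the cell line were present throughout. All 8 epithelial markers lay above the floor, with means from 8.83 in HD and 8.77 in LD for Cldn3 to 12.2 in HD and 12.3 in LD for Krt18. In HD 5 of the 8 were lower and 0 higher, beside the fall of Malat1 and Neat1, with Cldn4, Krt19 and Epcam at -1.09, -0.76 and -0.60 log2 units. After the control-row scaling, which lowers bright rows in HD, 7 were lower and 0 higher (median -0.36, against -0.12 as deposited). Of 7 fibroblast markers 4 were tested, with means of 5.55 to 6.80 in HD and 5.44 to 6.71 in LD. In LD the Col3a1 and Pdgfrb signals (5.65 and 5.44) were under the 5.67 of the negative control rows. Col3a1 alone passed, at 0.15 (limma adjusted p = 0.033), a call lost without any 1 array other than HD replicate 1, HD replicate 2, LD replicate 4 or LD replicate 5. All 4 were higher after quantile normalization, after the control-row scaling (median 0.35, against 0.12 as deposited) and with array weights, and 3 with the replicate block. Of 6 leukocyte markers 3 were tested; Cd3e rose by 0.16 near the floor, with its LD signal (5.29) also below the negative control rows (not without HD replicate 3 or LD replicate 2), and Cd68, which macrophages share with other cells, fell by 0.74 (7.83 in HD and 8.57 in LD). None of the 3 endothelial markers was above the floor. The part of these differences in the values of the noncoding RNAs was not tested.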

How the data were processed

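Expression was measured on 10 arrays, 1 per sample. The deposited values are log2 signals, made by the authors with RMA according to the submitters' processing notes; software version and build are not given in the sources. RMA equalises probe distributions between arrays and compresses folds. Scan dates were not used, so no check for batches was made.

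Symbols came from the platform annotation (30604 rows with 1 symbol, 2146 with several, 33206 transcript clusters with none), 827 of them updated through RefSeq. A gene was its brightest single-symbol row, tested if that row's mean exceeded the median of all rows' means (log2 5.24). HD was compared with LD by limma 3.58.1 in R 4.3.3 (lmFit, eBayes, two-sided, Benjamini-Hochberg, threshold 0.05) over 17800 genes, and over 32083 rows for rows naming several symbols. The fit was tested on simulated data. Control row medians were compared by exact permutation.

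The members and lists were chosen with earlier results of these data known. A further list, of hypoxia targets, was dropped after its results were seen. Named genes are the 10 members; per list, the 3 called genes with the largest change; the nearest tested gene on each side of a called member, shared rows included; and the 3 closest profiles to Malat1, Neat1 and Gas5. The closest profiles were sought without symbols made of Gm plus digits, ending in Rik or starting with LOC. SnoRNAs inside a host were matched by span, without a check of strand. Alternatives were a replicate block, quantile normalization, median centring, control-row scaling, no or a stricter filter (75th percentile), averaged rows, trended and robust variances, array weights, each array left out, a 1.5-fold threshold and adjustment over all rows.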

Additional observations from a re-analysis of the deposited data

Results flagged for a closer look

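A single array stood apart within its group in 3 of the 20 groups of 5 arrays looked at (10 rows, HD and LD); chance gives about 1 in 20. In each, the gap from the outermost array to the next, as a share of the group's range, exceeded Dixon's critical value of 0.71. In LD the row listing Snhg1 had a share of 0.761, with LD replicate 2 high at 8.90. For the row listing Snhg12 the share was 0.733, with LD replicate 4 low at 7.14, and for the untested row listing Meg3 it was 0.721, with LD replicate 4 high at 4.99. The Snhg1 and Snhg12 rows still passed the limma threshold without any single array.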

How the results depend on the processing

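The calls of Malat1, Neat1 and Snhg5 held under every alternative run except the 1.5-fold threshold, which left 0 of them higher and 1 lower (Neat1), 0 listing rows higher, and 138 genes higher and 278 lower over all genes. Log2 changes without 1 array ran from -0.59 to -0.48 for Malat1, -0.79 to -0.66 for Neat1 and 0.29 to 0.36 for Snhg5, with 1 called higher and 2 lower each time. Adjusted p over all alternatives ran up to 9.5e-05, 4.2e-05 and 0.0046 for the 3 genes. The control-row scaling called 8785 genes higher, against 5589, and turned ND3 (-0.15), Cdc27 (-0.0069) and Gmps (-0.017); higher genes were 72.1% of calls under it and under quantile normalization, against 61.7% as deposited. The cause was not tested. The H19 row counted as 1 row lower under median centring, with array weights and without HD replicate 3 or LD replicate 5 (0 to 1 rows over the arrays left out); 4 to 5 rows were then higher. Genes called without 1 array numbered 4704 to 5603 higher and 3063 to 3506 lower.

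The replicate numbers were not treated as pairs, since the labels state no pairing. Same-numbered arrays deviated from their group means with correlations of 0.19, -0.091, -0.036, 0.22 and -0.025. Such values cannot decide whether the samples were paired. With the replicate block 5654 genes were higher and 3404 lower, against 5589 and 3467, and the adjusted p was 8.9e-05 for Malat1, 6.1e-06 for Neat1 and 2.6e-04 for Snhg5. Each of the 3 genes had 1 row, so no other row could be tried.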
